A study of Homo sapiens with 9 samples.

Results

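The data described here are the mean nascent RNA profile of 479 genes of 50 to 100 kb, out of the 1473 genes of 25 kb or more that the averaged tables of the series cover. The profile was obtained by subtraction: 787 times the authors' mean over genes of 50 kb or more, minus 308 times their mean over genes of 100 kb or more, divided by 479. The choice rests on gene length and uses no difference between libraries. The authors had limited the genes to a top 3000, by a criterion that the sources used here do not give. The averages name no gene, so single members cannot be followed, no sequence is printed, and how the 479 genes vary among themselves is not known.

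The assay was BrU-seq, which sequences RNA made during a short labelling pulse, applied to 9 libraries of RPE1 cells, an immortalised human line from retinal pigment epithelium. All 9 share the background that the labels call iCas9 p53/puro-dKO. The lines were WT, an STK19 knockout (STK19-KO, here KO) and the same knockout with an STK19-TY transgene (here rescue). Each line gave a mock library and 2 more from cells irradiated with UV-C at 12 J/m2, one for 3 h and one for 16 h of recovery. Bromouridine, which cells build into new RNA, was given for 30 min at 2 mM. By the sample labels this pulse began 2.5 h and 15.5 h after irradiation, whereas the treatment protocol places it after 3 h and 16 h. There is 1 library per line and condition among the samples. The averages hold 1 column for each, but on another scale than the library files, so whether a column averages the reads of that library alone is not known. The labels do not say whether a line is a single clone. The averages name no genes, so the lines could not be checked by marker genes or by STK19 itself.

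UV-C makes lesions between neighbouring bases of DNA, and RNA polymerase II stalls when it meets one on the strand it reads. Transcription-coupled repair removes such lesions from active genes, and STK19 takes part in it. A polymerase that starts at the transcription start site (TSS) and travels a long gene meets more lesions than on a short one, so distance from the TSS is the natural axis for these data. Genes of 50 to 100 kb are long enough to show a loss of elongation, and short enough that a polymerase can cross them within hours.

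The values are mean signal per 200-bp bin on the authors' scale, which holds each library to a similar total, so that a loss of nascent RNA over the whole genome would not appear in them. For the same reason fewer cells and less RNA per cell cannot be told apart. A ratio to mock therefore says whether a region took a larger or smaller part of the library, and its place above or below 1 depends on that scale. Every gene of the set contains the stretch from 0 to 50 kb. The stretch from 50 to 100 kb holds the ends of these genes and, beyond them, their neighbours.

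In mock-treated cells the signal was highest next to the TSS and nearly level from about 10 kb on. In the first 1 kb it was 13.0 for WT, 9.60 for KO and 9.73 for rescue. From 1 to 5 kb it was 9.05 for WT, 8.83 for KO and 8.05 for rescue. From 25 to 50 kb it was 2.47 for WT, 2.95 for KO and 2.97 for rescue. Before any UV, KO and rescue thus stood at 0.738 and 0.747 of WT in the first 1 kb and at 1.19 and 1.20 of WT from 25 to 50 kb. The near share, used below because it does not depend on the scale of a library, is the part of the 0 to 50 kb signal that lies in the first 10 kb. In mock it was 41.0% for WT, 36.2% for KO and 34.9% for rescue. The median position, the distance within which 50% of the 0 to 50 kb signal lay, was 15.0 kb for WT, 17.3 kb for KO and 18.1 kb for rescue. In the first 1 kb, from 25 to 50 kb and in near share KO and rescue were closer to each other than to WT, whereas from 1 to 5 kb KO was closer to WT; the part of clone or culture in this was not tested.

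**Figure D1:**
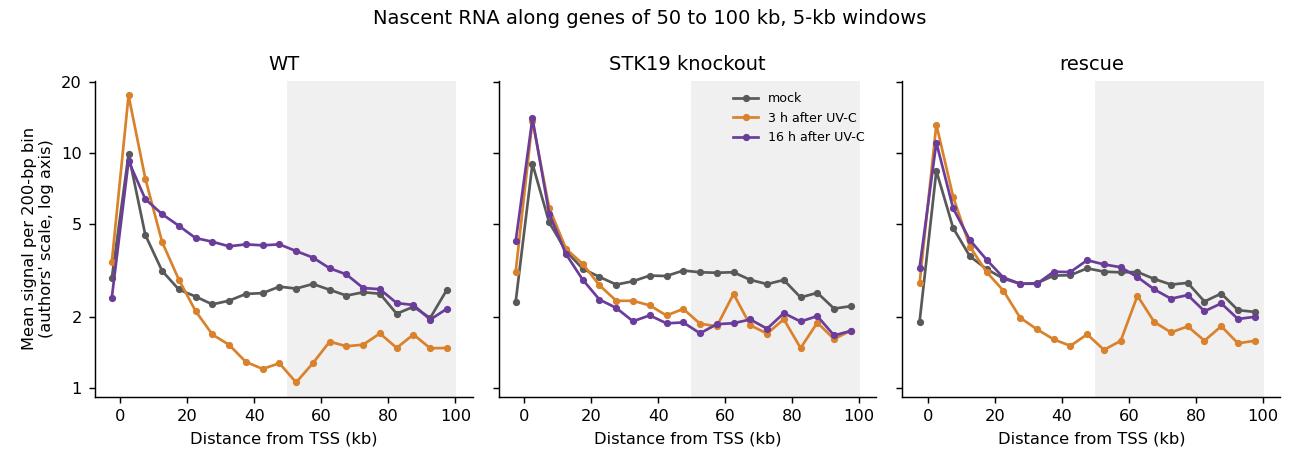
Mean signal per 200-bp bin (log axis) in 5-kb windows from 5 kb before to 100 kb after the TSS, in 1 panel per line, with 1 curve for each of the 9 libraries. The grey area marks 50 to 100 kb, where these genes end, and 2 bins near 66 kb are replaced by their surroundings. From 25 to 50 kb the WT curve lies at 1.40 at 3 h and 4.08 at 16 h against 2.47 in mock, while both UV curves of KO lie under its mock curve.

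At 3 h the signal of these genes was shifted towards the TSS in each of the 3 lines. From 1 to 5 kb it was 17.6 in WT against 9.05 in mock, a ratio of 1.95. In KO it was 12.9 against 8.83, a ratio of 1.47, and in rescue 13.1 against 8.05, a ratio of 1.62. From 25 to 50 kb the order was the opposite: 1.40 against 2.47 in WT, a ratio of 0.565, 2.23 against 2.95 in KO, a ratio of 0.756, and 1.72 against 2.97 in rescue, a ratio of 0.579. WT therefore had both the highest signal from 1 to 5 kb relative to mock and, by a small margin over rescue, the lowest from 25 to 50 kb.

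The first 1 kb did not follow the 4 kb after it. At 3 h its ratio to mock was 1.74 in KO, above the 1.32 of WT and the 1.40 of rescue. The first 1 kb stood at 1.44 times the level from 1 to 5 kb in WT mock and at 0.979 times in WT at 3 h. In KO the same quotient was 1.09 in mock and 1.29 at 3 h, and in rescue it was 1.21 and 1.04. Relative to the 4 kb after it, the first 1 kb was thus lower than in mock in WT and rescue and higher in KO.

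Beyond the first 10 kb the ratio to mock at 3 h declined close to a straight line on a log scale, but not at every step. From 40 to 45 kb and from 45 to 50 kb it was 0.476 and 0.473 in WT, 0.680 and 0.687 in KO, and 0.501 and 0.524 in rescue. In KO it was 1.02 from 10 to 15 kb and 1.05 from 15 to 20 kb. Over the 8 windows of 5 kb between 10 and 50 kb the log2 ratio went down with distance by 0.45 per 10 kb in WT (slope -0.45, r squared 0.965), 0.19 in KO (-0.19, 0.956) and 0.35 in rescue (-0.35, 0.949). In fold terms the fitted line multiplied the ratio by 0.732 for WT, 0.875 for KO and 0.786 for rescue per 10 kb of gene. These slopes do not depend on the scale of a library. They describe 1 curve each, and the windows are not replicates. The lowest ratio did not lie inside the common 50 kb but just past it, at 0.399 in WT and 0.465 in rescue in the window from 50 to 55 kb, and at 0.592 in KO from 55 to 60 kb.

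The near share gave the same order without the scale. At 3 h it was 61.0% for WT, 48.0% for KO and 51.8% for rescue, which is 19.96, 11.8 and 16.9 points above mock. Over the 3 lines the mean difference was 16.2 ± 4.12 points (SD, n = 3), above 0 in 3 of 3. The lines are not independent replicates of a condition, since rescue was made from the knockout, and the SD and the tests over lines take no account of that. An exact two-sided sign-flip permutation test over the lines gave p = 0.25, the smallest it can give with 3 lines, so no difference here can pass 0.05. The median position lay at 6.63 kb for WT, 10.9 kb for KO and 9.33 kb for rescue, which differs from mock by -8.35, -6.39 and -8.80 kb, towards the TSS. Rescue lay between KO and WT in near share and in slope, while its median position had the largest shift; with the first 1 kb left out that order changed, to -9.73 kb in WT, -8.99 kb for rescue and -5.86 kb in KO.

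**Figure D2:**
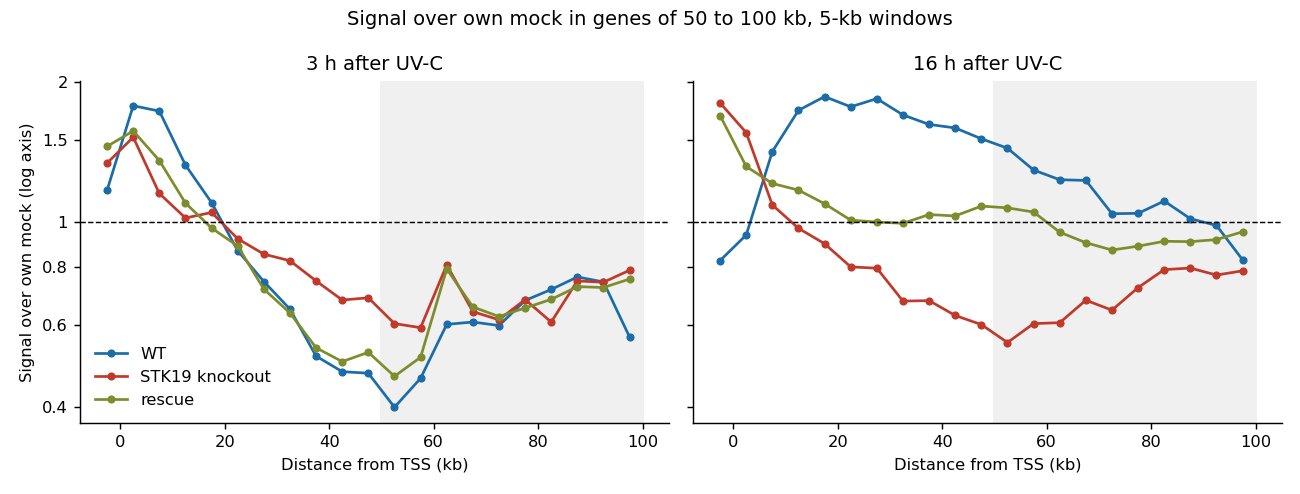
Signal over that of the same line's mock library (log axis) in 5-kb windows, at 3 h (left) and 16 h (right), with 1 curve per line and the dashed line at 1. The grey area marks 50 to 100 kb, and 2 bins near 66 kb are replaced by their surroundings. At 3 h all curves pass 1 between 16.1 and 19.7 kb and are lowest between 50 and 60 kb; at 16 h WT reaches 1.86 between 15 and 20 kb, rescue stays near 1 from 20 to 60 kb and KO goes down to 0.550.

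At 16 h the 3 lines had different profiles. In WT the first 1 kb was at 10.0 against 13.0 in mock, a ratio of 0.768, and the stretch from 1 to 5 kb was at its mock level, with a ratio of 1.0. Further in, WT exceeded its mock: the 10 to 25 kb stretch gave 4.91 after 2.74, 1.79 times as much, and the 25 to 50 kb stretch 4.08 after 2.47, 1.65 times as much. Its highest 5-kb ratio, 1.86, lay from 15 to 20 kb. The ratio then went down slowly, to 1.51 from 45 to 50 kb. The size of this excess depends on the scale. From 25 to 50 kb the WT ratio was 1.14 when each library was divided by its own mean from 0 to 50 kb. Scaled to all genes of 25 kb or more, it was 1.34.

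The KO profile at 16 h had the opposite form. Its first 1 kb was at 20.5 against 9.60 in mock, a ratio of 2.14, higher than the 1.74 at 3 h. The 25 to 50 kb stretch gave 1.99 against 2.95, or 0.673 of mock, lower than the 0.756 at 3 h. The slope between 10 and 50 kb was -0.20 per 10 kb, against -0.19 at 3 h. Between 3 h and 16 h the KO signal from 25 to 50 kb was multiplied by 0.891, that of WT by 2.92 and that of rescue by 1.78. The first 1 kb of KO was at 1.66 times the level from 1 to 5 kb, the highest quotient of the 9 libraries, against 1.11 in WT and 1.07 in rescue at 16 h.

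The rescue profile at 16 h was close to its mock over the gene body and above it near the TSS. The 25 to 50 kb stretch gave 3.06 against 2.97, or 1.03 of mock, and the 10 to 25 kb stretch 3.57 against 3.25, or 1.10 of mock. Its first 1 kb was at 11.7 against 9.73, a ratio of 1.20, and from 1 to 5 kb it stood at 10.9 against 8.05, a ratio of 1.35. Of the 10 windows of 5 kb inside the genes, 1 lay under mock in rescue, at 0.994, against 8 in KO and 1 in WT, which was the first window at 0.938. The sign of the rescue value from 25 to 50 kb depends on the scale, as the ratio was 0.908 when each library was divided by its own mean from 0 to 50 kb. Relative to KO, the ratio to mock of rescue was 1.53 times as high from 25 to 50 kb and 0.561 times as high in the first 1 kb. From 1 to 5 kb, however, the 2 lines were close, at 1.35 and 1.40.

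In scale-free terms the near share at 16 h was 30.7% for WT, 50.8% for KO and 39.3% for rescue. Against mock this is -10.3 points for WT, 14.6 for KO and 4.43 for rescue. The mean over lines was 2.92 ± 12.5 points (SD, n = 3), with p = 0.75 in the exact two-sided sign-flip permutation test. That mean joins lines with values of opposite sign, so the test does not say whether the near share changed in any 1 line. The median position was 19.3 kb in WT, 9.63 kb in KO and 15.4 kb for rescue, differing from mock by 4.36, -7.71 and -2.69 kb. KO at 16 h was nearer to the TSS than KO at 3 h by this measure, whereas WT had passed beyond its own mock.

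The places where signal over mock crossed 1 were read from a running mean over 5 kb, counting a crossing when the new side held for at least 5 kb. At 3 h the profile went below mock at 19.5 kb for WT, 19.7 kb for KO and 16.1 kb for rescue. On the authors' scale these 3 distances are close, although the lines differ in slope and in near share. At 16 h WT started below mock, went above it at 3.10 kb and returned below it at 89.1 kb, past the common part of the genes. KO went below mock at 10.5 kb. Rescue went below at 68.5 kb, or at 60.03 kb with 2 bins near 66 kb replaced by their surroundings. KO at both times and rescue at 3 h also went above mock at 63.3 to 63.4 kb and below it again at 68.5 to 68.6 kb, and these returns are absent when the same 2 bins are replaced. Scaled to the own mean from 0 to 50 kb, the 3 h crossings were at 15.1 kb in WT, 11.4 kb in KO and 16.0 kb in rescue. With the level from 5 to 2.5 kb upstream taken off, they were at 15.4, 19.8 and 12.3 kb. The closeness of the 3 distances thus depends on the scale. Scaled to the own mean from 0 to 50 kb, the 16 h crossing of rescue was at 14.6 kb. The 16 h rise of WT above mock was then at 7.85 kb, or at 5.16 kb when scaled to all genes of 25 kb or more.

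From 50 kb on the set of genes thins out, since each of the 479 ends somewhere before 100 kb. In mock the signal nevertheless stayed high: from 75 to 100 kb it was still 84.6% of the 45 to 50 kb level for WT, 77.6% for KO and 73.8% for rescue. The WT value is raised by bins at 99.4, 99.6 and 99.8 kb, which stood at 7.16, 10.0 and 5.86 in WT mock. No other library had such high bins there. The WT mock signal was 2.62 from 95 to 100 kb, against 1.99 from 90 to 95 kb. No value was computed without these bins. The level did not go down to 50% of the 45 to 50 kb window within 100 kb in any mock library. How much of it lies beyond the ends of these genes, from neighbours or from polymerases that read through, cannot be told apart in the averages. In genes of 100 kb or more, which extend over the whole window, the same quotient was 126%, 117% and 123%.

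**Figure D3:**
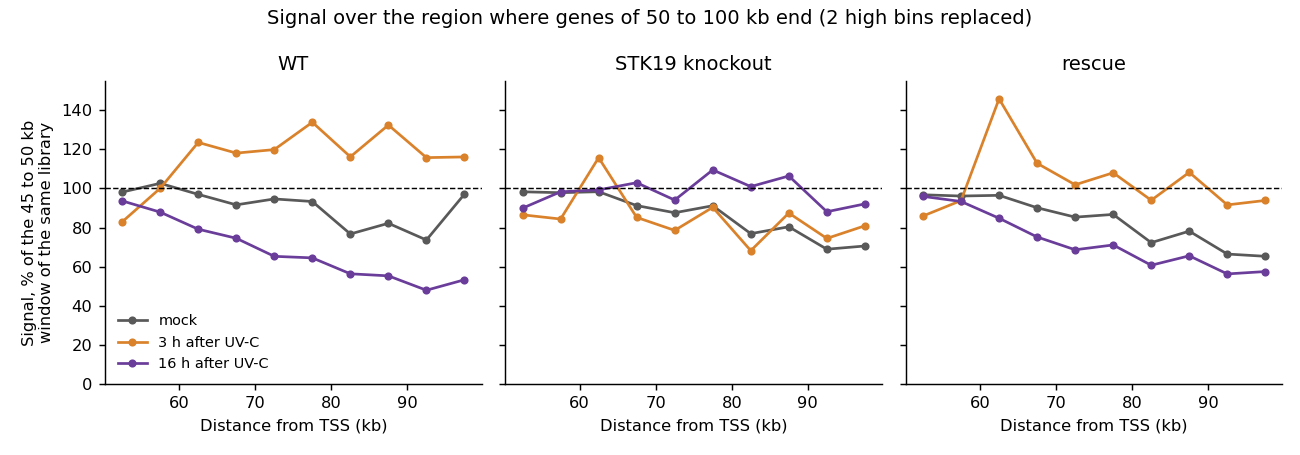
Signal in 5-kb windows from 50 to 100 kb as a percentage of the 45 to 50 kb window of the same library, in 1 panel per line, with the dashed line at 100%. The 2 bins near 66 kb are replaced by their surroundings. In WT the 3 h curve ends above 100% and the 16 h curve near 50%, with mock between them; in KO the 3 curves stay closer together.

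After UV the level of this region relative to the 45 to 50 kb window differed between lines, and it moves with that window as well as with the region itself. In WT the level from 75 to 100 kb was 123% of that from 45 to 50 kb at 3 h, where the gene body was low, and 55.4% at 16 h, where it was high. In KO it was 80.2% at 3 h and 99.4% at 16 h, and in rescue 99.1% and 62.2%. The ratio to mock from 75 to 100 kb varied less between lines than inside the genes: it was 0.687, 0.711 and 0.705 at 3 h in WT, KO and rescue, and 0.991, 0.771 and 0.913 at 16 h. Both WT ratios are lowered by the high bins near 99.6 kb in the WT mock library, by which they are divided. In the 16 h WT library the signal went down with distance to 50% of the 45 to 50 kb level at 91.0 kb, which no other library reached. In the 3 h libraries of KO and rescue the window from 60 to 65 kb stood out at a ratio of 0.809 and 0.793, with 0.592 and 0.512 in the window before it.

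The flank before the TSS differed between lines too. From 5 kb upstream to the TSS the ratio to mock was 1.17, 1.34 and 1.46 at 3 h in WT, KO and rescue, and 0.826, 1.81 and 1.70 at 16 h. In this flank rescue resembled KO and not WT at 16 h. In the outer part of the flank, from 5 to 2.5 kb upstream, the ratios at 3 h were 1.36, 0.994 and 1.36 in WT, KO and rescue. At 16 h they were 1.05, 1.34 and 1.56. The KO rise at 3 h and the WT decrease at 16 h were thus absent from the outer part. The signal in that part was 1.38 in WT mock and 1.88 in WT at 3 h. The latter is 147% of the WT level at 3 h from 45 to 50 kb, so at that time the end of the common gene body lay below the flank.

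A pair of neighbouring bins carried a large part of the signal at the gene ends. The bins at 65.8 and 66.0 kb stood at 6.70 and 13.4 in WT mock, 8.37 and 18.4 at 3 h, and 31.4 and 78.6 at 16 h, around a level of 2.45, 1.46 and 3.16 in the 10 bins next to them. In KO the bin at 66.0 kb held 10.1 in mock, 59.9 at 3 h and 121 at 16 h. In rescue it held 15.9, 87.5 and 31.3. Above its surroundings, the summed signal of the pair at 3 h was 1.57 times mock in WT, 7.99 times in KO and 6.78 times in rescue, and at 16 h it was 6.82, 16.3 and 2.23 times. The excess made up 1.49% of the 50 to 100 kb signal in KO mock, the lowest share, and 26.5% in KO at 16 h, the highest. Genes of 100 kb or more had no such peak, with 0.487 to 2.58 in the bin at 66.0 kb, nor had genes of 25 to 50 kb, with 2.49 to 3.98.

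**Figure D4:**
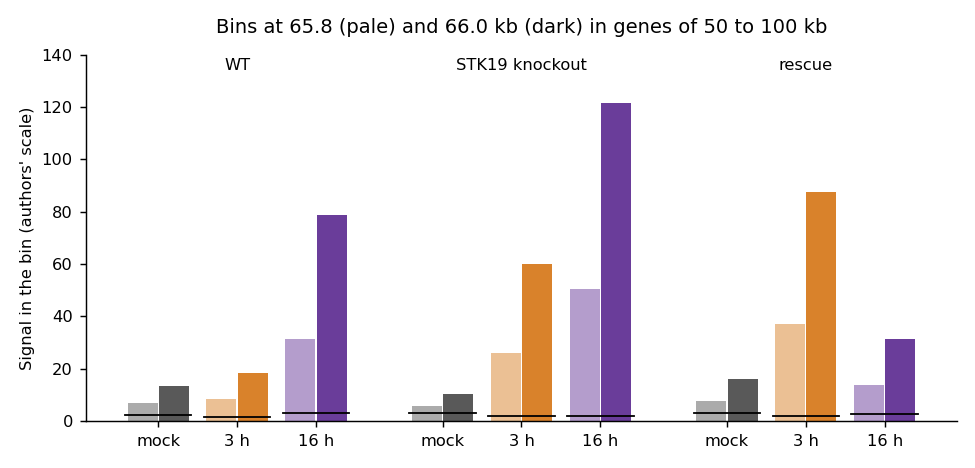
Signal of genes of 50 to 100 kb in the bins at 65.8 kb (pale bars) and 66.0 kb (dark bars) in each of the 9 libraries, with a black line at the mean of the 10 bins around them. The dark bar is between 10.1 and 15.9 in the mock libraries and reaches 121 in KO at 16 h and 87.5 in rescue at 3 h.

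The library files point to 1 identifier for this position. In each of the 9, uc003pbh.3 had the highest signal of all identifiers at 66.0 kb, 1893 in WT mock and 9130 in KO at 16 h, with 609 and 864 in the next identifier. The margin was narrowest in KO mock, at 1143 for uc003pbh.3 against 806 in the next identifier. It held between 5.75% (KO mock) and 33.7% (KO at 3 h) of all signal in that bin, and its signal at 65.6 kb was 0 in 8 libraries and 0.553 in rescue at 16 h. The files pair no gene name with it, and it was picked after its values were seen. The library files and the averages differ in scale, so their values are not set against each other. That uc003pbh.3 is the member behind the peak in the averages rests on the shared position and was not tested further.

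With these 2 bins left out, the ratio to mock over 50 to 100 kb was 0.604 for WT, 0.680 for KO and 0.652 for rescue at 3 h, and 1.13, 0.685 and 0.947 at 16 h. With them it was 0.627, 0.789 and 0.810 at 3 h and 1.27, 0.919 and 0.980 at 16 h. Without them every one of the 10 windows at the gene ends was below mock at 3 h in each line, and 2, 10 and 8 were at 16 h in WT, KO and rescue. The WT windows below mock at 16 h included that from 95 to 100 kb, at 0.830, where WT mock held its high bins near 99.6 kb.

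Genes of 50 to 100 kb were then set against genes of 100 kb or more over the stretch that lies inside both. The ratio to mock of the one divided by that of the other does not depend on how a library was scaled. At 3 h this quotient was 0.830, 0.829 and 0.795 from 25 to 50 kb in WT, KO and rescue, so that the ratio to mock there was lower in genes of 50 to 100 kb in 3 of 3 lines. From 1 to 5 kb it was 0.851, 0.859 and 0.842, and in the first 1 kb 0.786, 0.829 and 0.763, also under 1 in 3 of 3. Between 10 and 25 kb it was 1.05, 0.985 and 0.988. The mean log2 quotient was -0.29 ± 0.04 (SD, n = 3) from 25 to 50 kb, with p = 0.25 in the exact two-sided sign-flip permutation test, the smallest possible. The adjusted p of this test was 0.353 over all 24 sign-flip tests, which include those on near share. The slope of the log2 ratio per 10 kb at 3 h was steeper than in the longer genes, at -0.45 against -0.25 in WT, -0.19 against -0.06 in KO and -0.35 against -0.20 in rescue. A straight line described the longer genes less well. Their r squared was 0.754 in WT, 0.458 in KO and 0.867 in rescue, against 0.965, 0.956 and 0.949 in genes of 50 to 100 kb. The near share of the longer genes was 20.7, 12.5 and 17.2 points above mock, within 1 point of the values for genes of 50 to 100 kb.

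At 16 h the lines parted in this comparison as well. From 25 to 50 kb the quotient was 0.884 for WT, 0.975 for KO and 1.26 for rescue. In the first 1 kb it was 1.13, 1.36 and 1.28, above 1 in 3 of 3 lines (p = 0.25, exact sign-flip permutation test). The rescue line was at 1.03 of mock from 25 to 50 kb in genes of 50 to 100 kb and at 0.819 in genes of 100 kb or more. Its crossing below mock lay at 68.5 kb in the former and at 11.3 kb in the latter. The first of these distances depends strongly on the settings. It was 60.03 kb with the 2 bins near 66 kb replaced. Scaled to the own mean from 0 to 50 kb it was 14.6 kb, and scaled to all genes of 25 kb or more 19.6 kb. With the upstream level taken off it was 12.7 kb. The crossing of the longer genes was not recomputed at these settings, so the distances do not show a difference between the classes. KO went below mock at 10.5 kb in genes of 50 to 100 kb and at 4.75 kb in the longer genes. The near share of KO was 14.6 points above mock in genes of 50 to 100 kb and 10.1 in the longer genes. None of these differences was tested against repeated libraries.

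**Figure D5:**
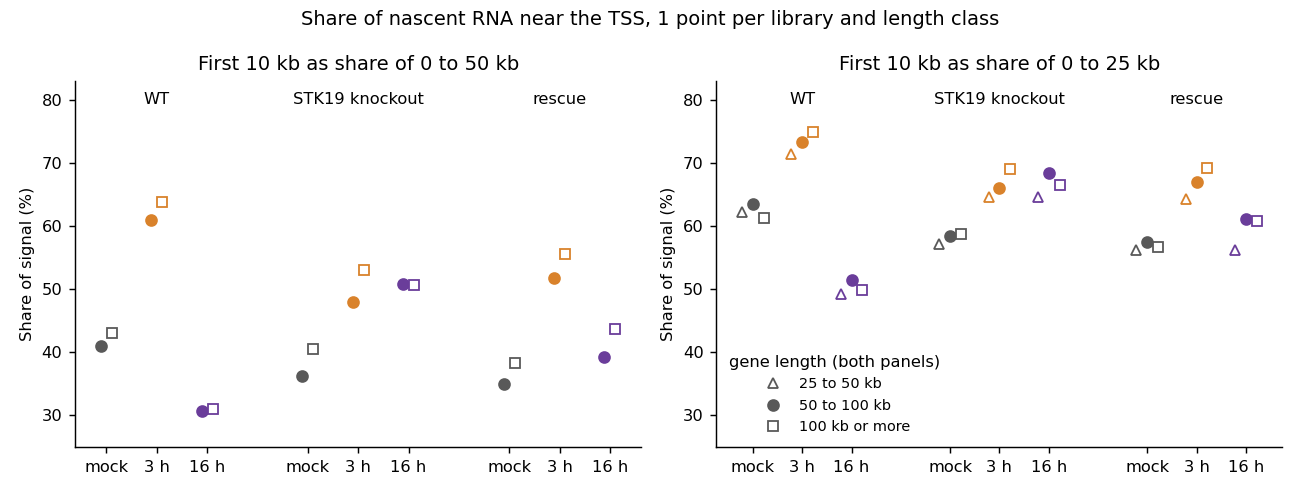
Share of signal in the first 10 kb, of the signal from 0 to 50 kb (left) and from 0 to 25 kb (right), with 1 point per library, filled circles for genes of 50 to 100 kb and open marks for the other length classes. Left, the filled circles go from 41.0% in WT mock to 61.0% at 3 h and 30.7% at 16 h, and from 36.2% to 48.0% and 50.8% in KO.

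Genes of 25 to 50 kb share only the first 25 kb with the set. Over that stretch the share of the first 10 kb at 3 h was 9.82, 7.72 and 9.54 points above mock in WT, KO and rescue for genes of 50 to 100 kb, and 9.17, 7.37 and 8.15 points for the shorter genes. At 16 h it differed from mock by -12.1, 10.1 and 3.68 points against -12.9, 7.41 and 0.0231 points. The difference between the classes had 1 sign in 3 of 3 lines at both times, with means of 0.795 ± 0.536 and 2.39 ± 1.44 points (SD, n = 3; p = 0.25 each, exact sign-flip permutation test). From 1 to 5 kb the ratio to mock was 1.16, 1.08 and 1.14 times that of the shorter genes at 3 h and 1.24, 1.05 and 1.16 times at 16 h.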

How the data were processed

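Per the labels' protocols, bromouridine-labelled RNA was isolated with an antibody, made into TruSeq libraries and sequenced as paired-end reads. R 4.0.5, HOMER 4.8.2, STAR 2.7.7a, Trim Galore 0.6.5 and FastQC 0.11.9 appear in the submitters' processing notes, beside the builds hg38 and GRCh38, without their roles. No source used here says whether strand was used in counting. The deposited values are signal, coverage in 200-bp bins around each TSS, scaled by the authors and averaged over 1473, 787 and 308 genes. In each table, value times gene number was a whole multiple of a step of 0.08 to 0.14 (100% of values within 0.02 of a step, and with 1 gene more or less at most 6.46%). The step of a library was the same in its 3 tables, so the gene numbers and the rounding add no error on that grid. The lowest derived value was 0.782. The subtraction also takes the 308 genes to be among the 787, and the 787 among the 1473, which this check cannot show. The depth behind the averages is unknown, so no counting interval is given.

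Windows hold the bins whose label lies in them. Calculations used Python 3.11.15 and numpy 2.4.6, tested on simulated data. No fit across genes was made and no gene could be named; the rule for regions fixed the windows. The unit was signal throughout, so only sign-flip tests over the 3 lines were run. Members, windows and tests were chosen with earlier results of these data known. The alternative without the bins near 66 kb and the use of the library files at that position were added after seeing the data.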

Additional observations from a re-analysis of the deposited data

Results flagged for a closer look

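At 16 h several values stood on opposite sides of mock in different lines, each from 1 library, and these differences were not tested. The near share of the first 10 kb was 24.9 points higher relative to mock in KO than in WT, and 14.7 points higher in rescue than in WT. The log2 ratio to mock from 25 to 50 kb was -1.29 in KO relative to WT and 0.62 in rescue relative to KO. From 50 to 100 kb the log2 ratio was -0.47 in KO relative to WT and -0.37 in rescue relative to WT, and that region includes the pair of high bins near 66 kb. With the pair included, these last differences depend on the scale. Divided by the own mean from 0 to 50 kb, the ratios to mock there were 0.873 in WT, 0.928 in KO and 0.863 in rescue. Without the pair, on the authors' scale, they were 1.13 in WT, 0.685 in KO and 0.947 in rescue, so that KO stood below both. The scaling was not repeated without the pair, so the order of the lines under it is not known apart from these bins.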

How the results depend on the processing

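Of 164 alternative values, 138 kept their direction and moved by no more than 1.5-fold or 5 kb (near share and quotients between length classes were judged by direction only). Divided by the own 0 to 50 kb mean, the WT ratio at 16 h from 50 to 100 kb was 0.873, the rescue ratio at 16 h from 25 to 50 kb 0.908, and the crossings were at 11.4 kb (KO, 3 h) and 14.6 kb (rescue, 16 h). Scaled to all genes of 25 kb or more, the last 2 rescue values were 0.979 and 19.6 kb. The rescue ratio from 25 to 50 kb at 16 h was also 0.957 over all genes of 50 kb or more and 0.980 as a median over bins. Without the 2 bins near 66 kb the rescue crossing at 16 h was at 60.03 kb. With windows from 5 kb, the slopes at 16 h were -0.0156 in WT and -0.0460 in rescue. With the upstream level taken off, ratios from 25 to 50 kb were 0.154 (KO, 16 h), 0.135 (rescue, 3 h) and 0.734 (rescue, 16 h), those from 50 to 100 kb 0.548, 0.459 and 0.614, and slopes -0.39 (KO, 3 h), -0.96 (KO, 16 h), -1.35 (rescue, 3 h) and -0.0607 (rescue, 16 h). The level from 75 to 100 kb was then 31.1% (WT, 16 h), 51.5% (KO, 3 h) and 27.6% (rescue, 16 h) of that from 45 to 50 kb, the rescue crossing at 16 h was at 12.7 kb, and the WT quotient against genes of 100 kb or more at 16 h was 1.05. This setting gave no value for WT at 3 h beyond the near share, the median position, the crossing and the quotient against genes of 25 to 50 kb, since its flank was above its gene body (-0.48 from 25 to 50 kb after subtraction). Differences in near share kept their direction with the upstream level taken off but were larger: in points, 40.1, 16.7 and 31.0 for WT, KO and rescue after 3 h, then -19.7, 31.8 and 10.9 after 16 h. Of the quotients against genes of 100 kb or more from 25 to 50 kb, rescue at 3 h was then at 0.323 and KO at 16 h at 0.368. With this setting or with a running mean over 10 kb, no crossing of WT at 16 h up through mock was counted. The starting side must also hold for at least 5 kb, so a shorter stretch below mock at the start gives no crossing. On the authors' scale the WT ratio at 16 h was 0.938 from 0 to 5 kb and 1.42 from 5 to 10 kb. With the upstream level taken off, the WT ratio at 16 h from 25 to 50 kb was 2.41. The cause of these changes was not tested. No repeated library was analysed here, and counting error could not be given.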
